A study of Rattus norvegicus with 12 samples.

Results

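The genes transcribed from mitochondrial DNA in rat kidney were taken as every row of the deposited gene tables placed on chromosome MT, which gave 15 of the 20455 genes with reads. These 15 MT rows held 13 mRNA and 2 rRNA genes and no tRNA gene, and all 15 passed the filter on low counts. RNA sequencing was made of 12 kidney libraries in 3 groups of 4. The CPB+Nitrite group underwent cardiopulmonary bypass, in which a heart-lung machine replaces the heart and lungs, and was given nitrite, an anion that the body can reduce to nitric oxide. The CPB group underwent bypass alone, and the sham group served as control. The series asks how bypass injures the kidney and whether nitrite protects it. The labels name the tissue and the treatment and give no dose, duration, sampling time, strain, sex or age. They do not say that the libraries of a group came from separate animals, so every p-value measures only the spread between these libraries. Because whole tissue was measured, fewer cells of a type and less RNA per cell cannot be told apart in any value below.

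Mitochondrial DNA is a small circle that is transcribed from both strands into long precursor RNAs. Excision of the tRNAs that lie between the other genes releases the rRNAs and mRNAs, so the steady level of each RNA depends on transcription, processing and decay. Its mRNAs encode core subunits of complexes I, III and IV of the respiratory chain and of ATP synthase, complex V, and its rRNAs form the mitochondrial ribosome that translates them. Every other protein of mitochondria comes from nuclear genes, and the kidney tubule, which reabsorbs salt and solutes at a high cost in ATP, is rich in mitochondria.

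The libraries held between 16.8 and 25.8 M reads each (M, mega). Levels are given as CPM, the reads of a gene per M reads of the library after scaling with edgeR's TMM factors, and a change is the log2 difference of one group over another with its standard error (SE). Adjusted p-values came from the quasi-likelihood test of edgeR and were adjusted by Benjamini and Hochberg's method over 14664 genes, and a gene was called where this value was below 0.05. Within the CPB+Nitrite group the libraries were less alike than in the others. Their median correlation with their own group was 0.918 to 0.947 in CPB+Nitrite, 0.974 to 0.98 in CPB and 0.966 to 0.977 in sham. The library CPB+Nitrite 2 stood apart, as described with the mRNAs it affects most.

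The 2 rRNA genes were higher in CPB than in sham kidneys, while none of the 13 mRNA genes passed the test. The CPB+Nitrite libraries were widely spread and overlapped both other groups in the level of each rRNA. Mitochondrial reads as a whole made up a similar share of every group's libraries, with ranges that overlapped.

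The small rRNA gene (ENSRNOG00000030478) lies at bases 68 to 1025 of chromosome MT on the plus strand in the build mRatBN7.2 and encodes the RNA of the small ribosomal subunit. Its level was 629, 634, 487 and 1214 CPM in the CPB+Nitrite libraries 1 to 4, 822, 1185, 1457 and 885 CPM in the CPB libraries, and 556, 476, 521 and 409 CPM in the sham libraries. Every CPB library lay above every sham library, and 3 of the 4 CPB+Nitrite libraries lay below the lowest CPB library. CPB over sham gave a log2 change of 1.15 (SE 0.28, 95% interval 0.55 to 1.75), a fold of 2.22, with an edgeR adjusted p of 0.00686.

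The large rRNA gene (ENSRNOG00000043866) follows at bases 1094 to 2664 on the same strand. It was measured at 1322, 2144, 885 and 4778 CPM in CPB+Nitrite, 1611, 3750, 4329.7 and 2689.9 CPM in CPB, and 903, 824, 929.8 and 751 CPM in sham kidneys. The CPB libraries again lay entirely above the sham libraries, and the CPB+Nitrite libraries reached both below the highest sham library and above the highest CPB library. The log2 change of CPB over sham was 1.86 (SE 0.45, 95% interval 0.88 to 2.84), a fold of 3.63, with an edgeR adjusted p of 0.00732. In the same comparison 21.7% of all tested genes were called higher and 43.2% were called in either direction, so a call alone was not unusual.

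**Figure D1:**
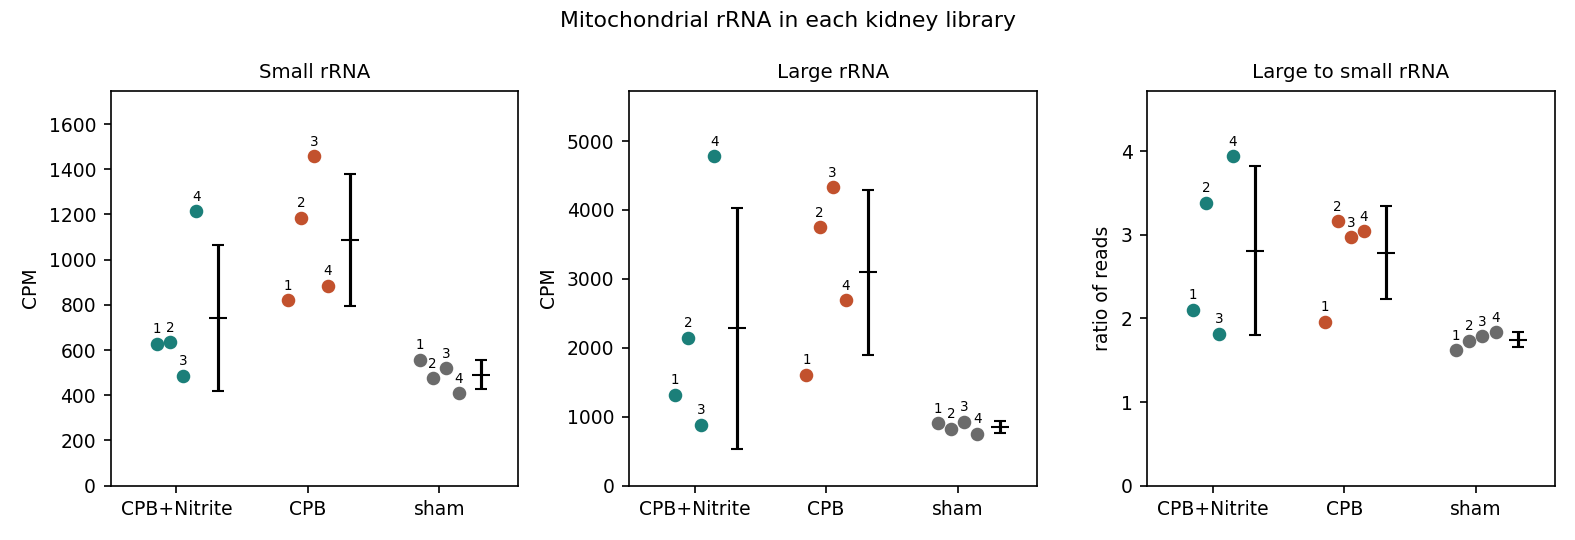
Mitochondrial rRNA in each library, with CPM of the small rRNA gene (left), CPM of the large rRNA gene (middle) and the ratio of large to small rRNA reads (right) on the vertical axes, each point a library with its replicate number and the bar the mean ± SD of 4. All 4 CPB libraries lie above the sham libraries in each panel, and CPB+Nitrite ranges from 487 to 1214 CPM of small rRNA and 885 to 4778 CPM of large rRNA.

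The large rRNA differed more than the small. Reads of the large rRNA per read of the small were 2.10, 3.38, 1.82 and 3.94 in CPB+Nitrite, 1.96, 3.16, 2.97 and 3.04 in CPB, and 1.62, 1.73, 1.79 and 1.84 in sham kidneys. All CPB values exceeded all sham values, with CPB 1 close to them. The log2 ratio differed by 0.65 between CPB and sham, and the exact two-sided permutation test gave p = 0.0286, the smallest that 4 against 4 libraries allow. Adjusted over the 6 ratio tests made, this became 0.0857, which misses the threshold. An adjusted value below 0.05 would have needed the smallest p in most of the 6 tests, so the miss decides little. CPB+Nitrite over sham gave 0.62 (exact p = 0.0571, adjusted 0.114) and CPB+Nitrite over CPB gave -0.03 (exact p = 0.943).

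Both rRNAs together made up 0.304% ± 0.202 of library reads in CPB+Nitrite, 0.387% ± 0.131 in CPB and 0.143% ± 0.012 in sham kidneys (SD, n = 4 each). They were therefore a small part of the mitochondrial reads, with 0.980% to 3.99% in CPB+Nitrite, 1.75% to 3.68% in CPB and 0.854% to 1.08% in sham libraries. The labels' protocols name neither poly(A) selection nor rRNA removal, so these shares describe the libraries and not the rRNA content of the tissue.

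Rn18s, the nuclear gene of the small cytosolic ribosomal RNA, moved with the mitochondrial rRNAs in part of the libraries. Its level was 696, 544, 677 and 1634 CPM in CPB+Nitrite, 1001, 1959.6, 1736 and 943 CPM in CPB, and 666, 693, 873 and 1003 CPM in sham kidneys. The 3 libraries highest in Rn18s, CPB 2, CPB 3 and CPB+Nitrite 4, were also the 3 highest in mitochondrial large rRNA. CPB 1 and CPB 4 stayed within the sham range of Rn18s, and both had more of each mitochondrial rRNA than any sham library. All nuclear rRNA genes together took 0.585% to 1.07% of reads in CPB+Nitrite, 0.384% to 1.02% in CPB and 0.560% to 0.787% in sham libraries, with CPB 4 the lowest of the 12. CPB 1 (0.893%), CPB 2 (1.02%) and CPB 3 (0.868%) each lay above every sham library in this share. CPB 1 also exceeded every sham library in LOC120093067 (5224 against at most 4369 CPM) and LOC120102105 (2403 against at most 2153 CPM). The nuclear rRNA genes differed among themselves in CPB 4. Rn45s was at 1559 CPM in CPB 4, against 205 to 788 CPM in the other libraries. LOC120093067 (1692 CPM) and LOC120102105 (131 CPM) were lowest in CPB 4. The part of the carry-over of rRNA into the libraries in the mitochondrial rRNA result was not tested. Summed markers of 3 tubule segments also differed between the CPB and sham libraries. Proximal tubule markers, 11 genes that all had reads, summed to 5431 to 7668 CPM in CPB+Nitrite, 5329.9 to 5805 CPM in CPB and 8083 to 9716 CPM in sham libraries. Collecting duct markers, 8 genes with reads, summed to 1517 to 4369.6 CPM in CPB+Nitrite, 836 to 1482 CPM in CPB and 1529.5 to 2070.0 CPM in sham libraries. Of 4 distal convoluted tubule markers 3 had reads, and they summed to 185 to 774 CPM in CPB+Nitrite, 354 to 593 CPM in CPB and 601 to 1244 CPM in sham libraries. All 3 sums were lower in every CPB than in every sham library, while those of the thick ascending limb overlapped. Single markers did not all follow their sums. Scnn1g of the collecting duct was at 69.5 to 131 CPM in CPB and 52.6 to 90.1 CPM in sham libraries. Of the proximal tubule, Slc5a2 was at 45.95 to 87.6 CPM in CPB and 27.1 to 61.4 CPM in sham libraries. Cubn was at 140 to 347 CPM in CPB and 163 to 224 CPM in sham libraries. The part of tubule content in the rRNA result was not tested either.

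Taken over all 15 genes, mitochondrial reads made up 14.7% ± 1.66 of the library in CPB+Nitrite, 13.6% ± 1.07 in CPB and 14.2% ± 0.32 in sham kidneys (SD, n = 4 each). The CPB+Nitrite libraries 1 to 4 held 16.80%, 12.79%, 14.32% and 14.80%, the CPB libraries 13.66%, 14.73%, 14.004% and 12.19%, and the sham libraries 14.27%, 14.01%, 13.93% and 14.65%. The sham libraries were close together, and each of the other groups held libraries above and below several of them. CPB minus sham was -0.57 percentage points and CPB+Nitrite minus CPB was 1.03 points, both within the spread of the libraries. Per 100 reads of nuclear protein-coding genes there were 17.4 ± 2.43 mitochondrial mRNA reads in CPB+Nitrite, 15.8 ± 1.45 in CPB and 16.9 ± 0.46 in sham kidneys.

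**Figure D2:**
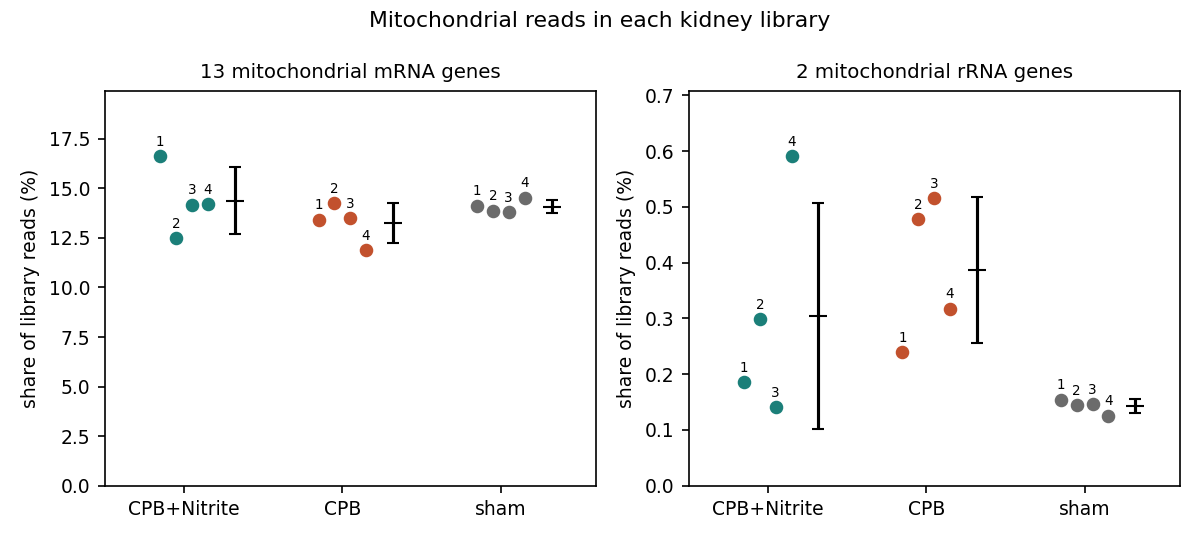
Share of library reads, in percent on the vertical axis, of the 13 mitochondrial mRNA genes (left) and the 2 mitochondrial rRNA genes (right) in each library, with the mean ± SD of 4 beside the points. The mRNA shares of the 3 groups overlap, while the rRNA shares of the CPB libraries (0.239% to 0.516%) lie above those of the sham libraries (0.125% to 0.155%).

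Compared per kilobase of gene length, the mRNAs spanned a wide range of levels. In sham kidneys Mt-co1, the catalytic subunit of cytochrome c oxidase, had 28657 ± 2202 CPM per kilobase, followed by Mt-co3 (20389.6 ± 1290.5) and then Mt-atp6 (16740.2 ± 833) and Mt-co2 (16499.9 ± 1225), whose libraries overlapped (SD, n = 4). Mt-cyb stood at 13343 and Mt-nd2 at 10281 CPM per kilobase, ahead of Mt-nd1 (7544) and Mt-nd4 (7356), which overlapped. Lower levels belonged to Mt-nd5 (2795), Mt-nd3 (1395) and Mt-atp8 (1061). Mt-nd4l (599.6), the large rRNA (542) and the small rRNA (512) overlapped as neighbours, and Mt-nd6 was lowest at 135 ± 29.5 CPM per kilobase. By mean CPM over all libraries, not per length, Mt-co1, Mt-co3, Mt-cyb, Mt-atp6, Mt-co2, Mt-nd2 and Mt-nd4 were the 7 most abundant genes of the whole table, and Mt-nd6 stood at rank 3547.

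Some of these levels rest on how reads were divided between overlapping genes. Mt-atp8 and Mt-atp6 share 43 bases, Mt-nd4l and Mt-nd4 share 7, and Mt-nd5 and Mt-nd6 share 23 on opposite strands. Nuclear copies of mitochondrial sequence could also take or give reads, and the tables do not resolve either split. The levels of Mt-atp8, Mt-nd4l and Mt-nd6 are uncertain in part for that reason. The overlaps cover 43 of the 204 bases of Mt-atp8, but only 7 of 297 in Mt-nd4l and 23 of 519 in Mt-nd6. Levels per kilobase also used the full gene length, with no correction for fragment length. Those of the short genes Mt-atp8 and Mt-nd4l are therefore not a measure of transcript amount beside longer genes. Mt-nd6 also had the fewest reads, 373 to 1989 per library.

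In CPB over sham the log2 changes of the 13 mRNAs ran from -0.61 (Mt-nd6) to 0.21 (Mt-atp6) with a median of 0.04, and the median over all tested genes was -0.05. The smallest edgeR adjusted p among them was 0.153. Scaling by library totals alone, without TMM factors, lowered the median of all genes to -0.24, and 8 of the 9 mRNAs with a positive change then had a negative one. The mRNAs as a family thus had no direction that held under both scalings. Of the 15 genes, 4 had CPB libraries that lay entirely above the sham libraries, both rRNAs, Mt-nd2 and Mt-atp6, against 23.5% of all tested genes, and none lay entirely below, against 24.8%.

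Complex I, which takes electrons from NADH, has 7 subunits encoded in mitochondria, and they were the most varied. Mt-nd1, Mt-nd2 and Mt-nd4, membrane subunits with 5776 CPM or more in every library, had log2 changes of 0.06, 0.16 and 0.04 in CPB over sham. For Mt-nd1 the 95% interval ran from -0.31 to 0.43. Mt-nd4l gave -0.09.

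Mt-nd3, a small subunit at a hinge of the enzyme, was measured at 664, 478, 485 and 512 CPM in CPB+Nitrite, 542, 375, 373 and 300.5 CPM in CPB, and 553, 451, 489 and 449 CPM in sham kidneys. The CPB libraries 2 to 4 lay below all others, and CPB 1 lay within the sham range. The log2 change of CPB over sham was -0.29 (SE 0.19, edgeR adjusted p 0.227). It passed the threshold with limma voom weights (-0.34, adjusted p 0.0396) and with edgeR when CPB 1 was left out (-0.47, adjusted p 0.0492). CPB+Nitrite over CPB gave 0.43 (SE 0.19, edgeR adjusted p 0.154), the only one of the 15 genes with an unadjusted p below 0.05 in that comparison.

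Mt-nd5, a proton-pumping subunit near the end of the membrane arm, had 5343 CPM in CPB+Nitrite 1, 843 in CPB+Nitrite 2, 5409 in CPB+Nitrite 3 and 4189.7 in CPB+Nitrite 4. The CPB libraries had 4277, 4803, 4431 and 2505 CPM and the sham libraries 4326, 4938, 5251 and 5948 CPM. CPB+Nitrite 2 and CPB 4 were the lowest, and all groups overlapped. CPB over sham gave -0.35 (SE 0.43, edgeR adjusted p 0.515).

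Mt-nd6 is the only mRNA of the minus strand, whose transcript otherwise carries tRNAs. Its level was 84.1, 27.3, 66.5 and 42.1 CPM in CPB+Nitrite, 53.7, 61.0, 44.2 and 24.98 CPM in CPB, and 63.1, 54.8, 72.7 and 90.4 CPM in sham kidneys. CPB 2 overlapped the sham libraries, and the other CPB libraries lay below them. CPB over sham gave a log2 change of -0.61 (SE 0.34, 95% interval -1.34 to 0.11, edgeR adjusted p 0.153). Relative to the mean of the 12 mRNAs of the other strand, per kilobase, Mt-nd6 was lower in every CPB library than in every sham library. The log2 ratio differed by -0.77, with an exact two-sided permutation p of 0.0286, the smallest possible, and 0.0857 after adjustment over the 6 ratio tests. This adjustment has the limit given for the rRNA ratio. The same ratio gave 0.16 in CPB+Nitrite over CPB (exact p = 0.686) and -0.61 in CPB+Nitrite over sham (exact p = 0.171, adjusted 0.257).

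Mt-cyb, the cytochrome of complex III, had 20384, 19336, 17433 and 15324 CPM in CPB+Nitrite, 15139 to 16191 CPM in CPB and 14314 to 15730.0 CPM in sham kidneys. Only CPB+Nitrite 4 fell among the other groups. The log2 change was 0.21 in CPB+Nitrite over CPB (SE 0.16, edgeR adjusted p 0.365) and 0.25 over sham (SE 0.16, edgeR adjusted p 0.320), neither past the threshold.

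Among the 3 cytochrome c oxidase subunits of complex IV, the log2 changes of CPB over sham were 0.17 for Mt-co1, 0.01 for Mt-co2 and 0.15 for Mt-co3. Mt-co1 had 58739.6, 20299.8, 45134 and 49789.8 CPM in CPB+Nitrite, 45432, 53974, 54073 and 45294 CPM in CPB, and 41339, 41845, 48659 and 45260.4 CPM in sham kidneys. CPB+Nitrite 2 stood far below the other 11 libraries, and CPB+Nitrite 1 was the highest of all.

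The ATP synthase subunits Mt-atp6, which forms the proton channel, and Mt-atp8, a short subunit beside it, had log2 changes of 0.21 and 0.16 in CPB over sham. Mt-atp6 was measured at 15571, 14021, 12186 and 13089.7 CPM in CPB+Nitrite, 13105, 12917, 13509 and 13113 CPM in CPB, and 12067, 10701, 11293 and 11539 CPM in sham kidneys. Every library of both bypass groups lay above every sham library. The log2 change was 0.27 in CPB+Nitrite over sham (SE 0.15, edgeR adjusted p 0.269) and was not called in either comparison with sham. In CPB+Nitrite over sham 5.64% of all tested genes lay entirely above sham, and Mt-atp6 was the only one of the 15.

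**Figure D3:**
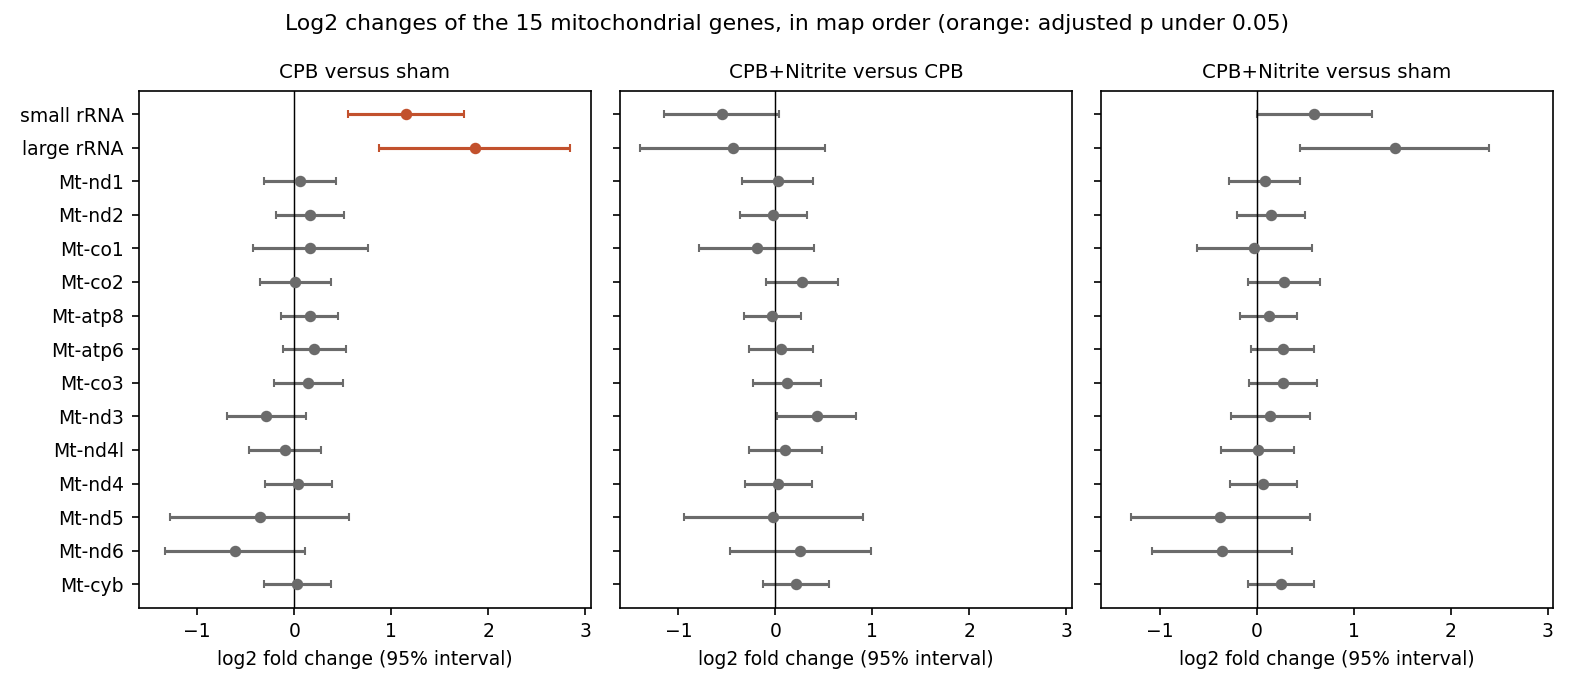
Log2 change (horizontal axis) of each of the 15 mitochondrial genes in map order, with its 95% interval, for CPB over sham (left), CPB+Nitrite over CPB (middle) and CPB+Nitrite over sham (right). Orange marks the 2 genes called, the small rRNA at 1.15 and the large rRNA at 1.86 in CPB over sham, and the mRNA points lie between -0.61 and 0.43 in all panels.

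As a share of mitochondrial mRNA reads, Mt-co1 alone took 32.6% to 34.6% in CPB+Nitrite libraries 1, 3 and 4, 33.2% to 36.6% in CPB and 31.0% to 35.6% in sham libraries. Mt-cyb took 10.7% to 11.3% in CPB and 11.4% to 11.7% in sham libraries, and Mt-nd6 0.0187% to 0.0415% in CPB and 0.0440% to 0.0672% in sham libraries. These were the 2 of 13 mRNAs whose shares in CPB lay entirely below those in sham. By CPM, another measure, both overlapped sham, while 24.8% of all tested genes lay entirely below. The log2 change of Mt-cyb by CPM was 0.03. Shares of a whole are bound to each other, so a higher share of one mRNA lowers the others.

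CPB+Nitrite 2 had another make-up. In that library Mt-co1 took 17.5% of the mitochondrial mRNA reads and Mt-nd5 0.725%, against 2.91% to 3.90% of Mt-nd5 in the other 3 CPB+Nitrite libraries. Its CPM relative to the mean of those 3 was 0.169 for Mt-nd5, 0.396 for Mt-co1 and 0.425 for Mt-nd6, against 1.17 for Mt-co2, 1.14 for Mt-co3, 1.09 for Mt-cyb and 1.03 for Mt-atp6. The same library differed in cell markers. The summed CPM of 5 thick ascending limb markers, all with reads, was 595 in it and 4869 to 8534 in the other 11 libraries. Collecting duct markers (8 genes) summed to 4369.6 CPM in it, against 836 to 2070.0 CPM in the others. Of these markers, Aqp2 (2758 CPM), Aqp3 (662 CPM) and Fxyd4 (233 CPM) lay above all other libraries. Scnn1g (50.4 CPM) lay below all others, and Scnn1b, Atp6v1b1, Slc4a1 and Slc26a4 lay within their range. Endothelial markers (6 genes) summed to 2124 CPM, against 79.5 to 288 CPM. Plvap gave 1381 CPM of that sum, and Cdh5 (61.2 CPM) was lower than in CPB+Nitrite 4 (68.1 CPM). Erythrocyte markers (3 genes) summed to 7743 CPM, against 306 to 3630.1 CPM. The part of the cells sampled in the mRNA levels of this library was not tested. Without CPB+Nitrite 2 the log2 change of CPB+Nitrite over CPB was 0.31 for Mt-nd5 (edgeR adjusted p 0.434) and 0.04 for Mt-co1 (edgeR adjusted p 0.905), in place of -0.02 and -0.19, and none of the 15 genes was called.

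**Figure D4:**
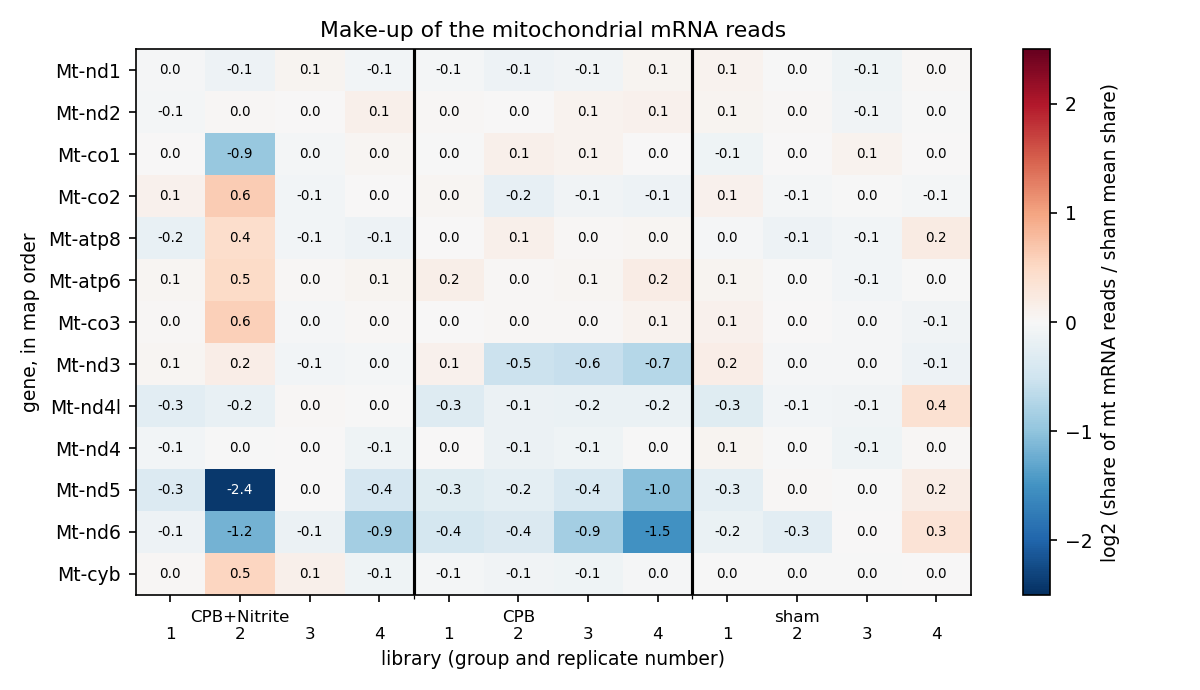
Share of mitochondrial mRNA reads of each of the 13 mRNA genes (rows, in map order) in each library (columns, by group and replicate), coloured and lettered by the log2 of the share over the mean sham share. CPB+Nitrite 2 is the column that departs most, with Mt-nd5 at 0.725% and Mt-co1 at 17.5% of the reads, and Mt-nd6 is low in CPB 4 at 0.0187%.

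Whether nitrite altered these transcripts under bypass is addressed by CPB+Nitrite over CPB. By edgeR none of the 15 genes was called, 1 had an unadjusted p below 0.05, and DESeq2 and limma voom called 0. Of all 14664 genes edgeR called 0% in this comparison, 29.4% had an unadjusted p below 0.05, and DESeq2 called 2215 genes and voom 1. With 1 library left out edgeR called 2865 genes without CPB+Nitrite 1, 4 without CPB 1 and 0 without any other, so the count of 0 rested on CPB+Nitrite 1. The log2 change was -0.55 for the small rRNA (SE 0.27, 95% interval -1.15 to 0.04, edgeR adjusted p 0.194) and -0.44 for the large rRNA (SE 0.44, -1.39 to 0.51, edgeR adjusted p 0.510). Leaving out CPB+Nitrite 4, the library with the most of both rRNAs in its group, gave -0.90 for the small rRNA (edgeR adjusted p 0.0517) and -1.10 for the large rRNA (edgeR adjusted p 0.0690), neither called. The mRNAs had a median log2 change of 0.06, beside 0.05 for all tested genes.

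Against sham, CPB+Nitrite kidneys had log2 changes of 0.60 for the small rRNA (SE 0.27, edgeR adjusted p 0.181) and 1.42 for the large rRNA (SE 0.45, 95% interval 0.45 to 2.39, edgeR adjusted p 0.0745). The large rRNA was called by DESeq2 (1.43, adjusted p 0.0137), by limma voom weights (1.32, adjusted p 0.0401) and by edgeR without CPB+Nitrite 3 (1.69, adjusted p 0.0138). Without CPB+Nitrite 4 its log2 change was 0.76 (edgeR adjusted p 0.244), and that of the small rRNA was 0.25. The call thus turned on which libraries and tool were used. By edgeR 0 of the 15 genes was called and 2 had an unadjusted p below 0.05, while 4.81% of all tested genes were called. The 13 mRNAs had a median of 0.12, beside 0.04 for all tested genes, and an edgeR adjusted p of at least 0.269. Both CPB and CPB+Nitrite were set against the same 4 sham libraries, so the values of the 2 comparisons share those libraries.

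The nuclear genes that supply, transcribe, process and translate mitochondrial RNA were described for comparison, in lists that were drawn up with earlier results of these data known. Of 70 tested nuclear subunits of complexes I to V, 17 were lower and 0 higher in CPB than in sham, with a median log2 change of -0.32. In that comparison 21.5% of all tested genes were lower, so the lower count was close to the background. The higher count of 0 was not, beside 21.7% of all tested genes, and it stayed 0 under every alternative run. Of the 70 log2 changes 3 were positive, and the median over all tested genes was -0.05. The lower count depended on single libraries. It was 2 without CPB 2, 5 without CPB 3, 3 without CPB 4, 7 without sham 1, 3 without sham 2, 4 without sham 3, 11 without CPB+Nitrite 1 and 26 without CPB+Nitrite 2. It was 42 with library totals alone, 28 with a filter at a mean of 2 CPM, 9 with no filter, 45 with voom and 30 in a fit of the CPB and sham libraries alone.

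By complex, 10 of 35 nuclear subunits of complex I, 2 of 4 of complex II, 2 of 8 of complex III, 0 of 9 of complex IV and 3 of 14 of complex V were lower in CPB. With 1 library left out these counts ran from 2 to 15 for complex I, 0 to 3 for complex II, 0 to 4 for complex III and 0 to 4 for complex V. For complex I the count was 2 to 4 without any 1 of sham 1, sham 2, sham 3, CPB 2, CPB 3 and CPB 4, and 6 to 27 under the other settings. For complex IV 0 had an unadjusted p below 0.05, and DESeq2 and voom also called 0. Ndufs3 and Ndufs1, core subunits of the part of complex I that passes electrons, had log2 changes of -0.76 (SE 0.16, edgeR adjusted p 0.00346) and -0.67 (SE 0.15, adjusted p 0.00459). Ndufs1 was at 181, 151, 233 and 165 CPM in CPB+Nitrite, 179, 169, 174 and 200 CPM in CPB, and 264, 278, 308 and 303 CPM in sham kidneys, so that every bypass library lay below every sham library. Sdhd of complex II (-0.64), Uqcrfs1, the Rieske protein of complex III (-0.48), and Atp5f1c, the stalk subunit of ATP synthase (-0.52), were also lower. The median log2 change of nuclear subunits was -0.35 for complex I, -0.35 for complex III, -0.12 for complex IV and -0.31 for complex V.

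**Figure D5:**
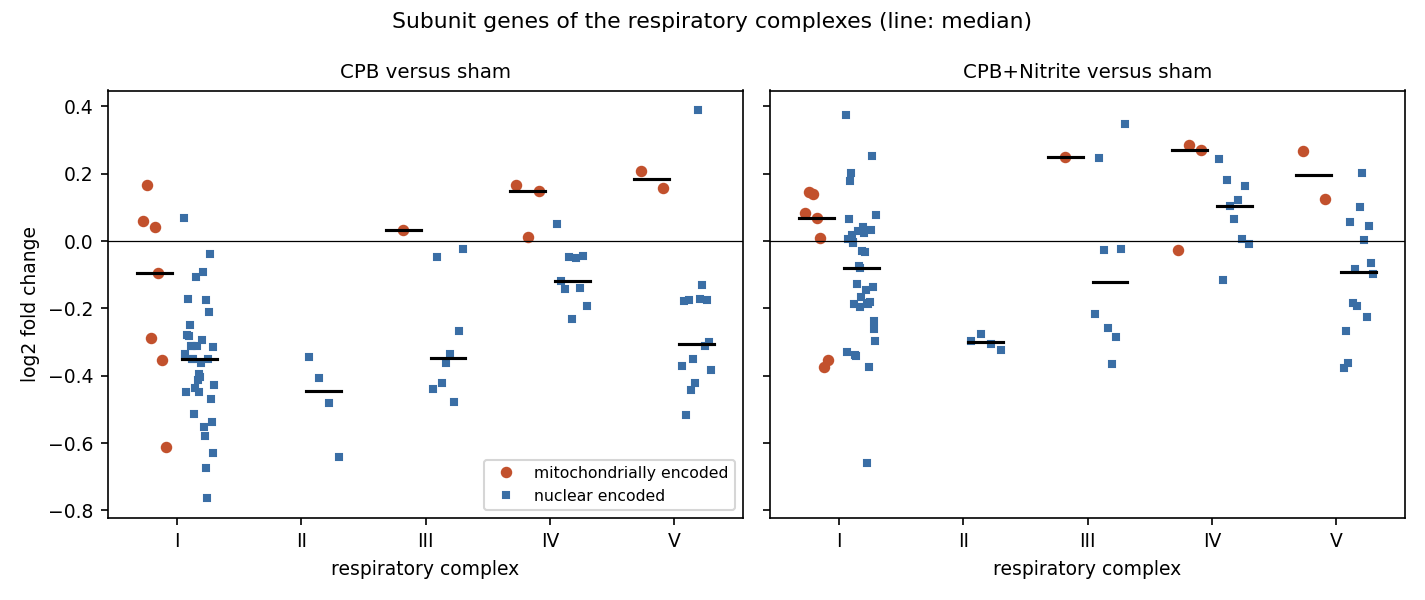
Log2 change (vertical axis) of each mitochondrially encoded (circles) and nuclear encoded (squares) subunit gene of complexes I to V (horizontal axis), for CPB over sham (left) and CPB+Nitrite over sham (right), which share the 4 sham libraries; lines are medians. In CPB over sham the nuclear medians lie between -0.44 (complex II) and -0.12 (complex IV), and the 13 mitochondrial mRNAs have a median of 0.04.

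Of 18 tested genes of mitochondrial DNA transcription and replication, 2 were higher and 1 lower in CPB than in sham, a smaller share than the 43.2% of all tested genes called. Polrmt, the RNA polymerase that makes all mitochondrial transcripts, was at 34.2, 26.6, 45.1 and 36.6 CPM in CPB+Nitrite, 30.0, 37.2, 32.7 and 37.2 CPM in CPB, and 54.7, 47.4, 41.0 and 47.1 CPM in sham kidneys. All CPB libraries lay below all sham libraries (log2 change -0.47, SE 0.16, edgeR adjusted p 0.0345). The call was lost with the factors of the second deposited table and without any 1 of sham 1, sham 2, sham 4, CPB 2, CPB 3, CPB 4 and CPB+Nitrite 1, where 0 genes of the list were lower. The higher count was 1 to 3 with 1 library left out, and 1 without any 1 of the sham or CPB libraries, CPB+Nitrite 3 or CPB+Nitrite 4. Rnaseh1, which removes RNA primers from DNA, was higher in CPB (0.73, adjusted p 0.00560). Tfam, which packs mitochondrial DNA and opens its promoters, had 44.6 ± 0.19 CPM in CPB+Nitrite, 55.4 ± 8.24 in CPB and 46.5 ± 4.38 in sham kidneys (SD, n = 4 each) and was not called (CPB over sham 0.25, edgeR adjusted p 0.123). Tfb2m, the initiation factor of the polymerase (0.03), and Polg, the replicative polymerase (0.24), were not called either.

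Of 19 RNA processing and stability genes 3 were higher and 5 lower in CPB than in sham, close to the 21.7% of all tested genes higher and 21.5% lower. The lower count was 2 without sham 3, sham 4, CPB 3 or CPB 4 and 3 without sham 2 or CPB 2. Trmt10c, a subunit of the enzyme that cuts the front end of mitochondrial tRNAs, was at 41.5, 16.7, 27.1 and 31.96 CPM in CPB+Nitrite, 47.1, 44.5, 45.4 and 48.0 CPM in CPB, and 25.1, 23.4, 28.7 and 25.7 CPM in sham kidneys. The CPB libraries were above all others (CPB over sham 0.85, SE 0.21, edgeR adjusted p 0.00877). Noa1, a GTPase of the mitochondrial ribosome, was also higher in CPB (0.79, adjusted p 0.00543). Fastk, for which a role in Nd6 mRNA has been reported in other mammals, was lower, with 61.5, 65.0, 78.8 and 54.4 CPM in CPB+Nitrite, 56.3, 46.0, 41.9 and 34.1 CPM in CPB, and 91.1, 80.7, 83.6 and 72.5 CPM in sham kidneys. Its log2 change in CPB over sham was -0.88 (SE 0.17, edgeR adjusted p 0.00230). Lrpprc, which binds and stabilises mitochondrial mRNAs, gave -0.34 and its partner Slirp 0.05, and neither was called.

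Of the 6 genes of mitochondrial RNA decay, 2 were higher and 3 lower, with 43.2% of all tested genes called in either direction. With 1 library left out these counts were 1 to 2 and 2 to 3, the 1 being the count without CPB+Nitrite 3 and without any 1 of the sham libraries, CPB 2, CPB 3 and CPB 4. Pnpt1, the mitochondrial polynucleotide phosphorylase, had 45.8 ± 7.87 CPM in CPB+Nitrite, 70.2 ± 10.05 in CPB and 44.6 ± 5.52 in sham kidneys (SD, n = 4 each), and CPB over sham gave 0.65 (SE 0.16, edgeR adjusted p 0.00702). Its helicase partner Supv3l1 was lower (-0.50, adjusted p 0.0132), as were Endog, a nuclease (-1.28, adjusted p 0.00404), and Lactb2, a ribonuclease (-1.06, adjusted p 0.0265).

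Genes of mitochondrial translation were mostly lower in CPB. Of 13 translation factors 8 were lower and 0 higher in CPB than in sham (median log2 change -0.45), and of 16 mitochondrial aminoacyl-tRNA synthetases 10 were lower and 0 higher (median -0.54), beside 21.5% of all tested genes lower. With 1 library left out at a time the lower counts were 5 to 8 and 8 to 11, and the count of 5 translation factors came without sham 2, without sham 3 or without CPB 2. Synthetases called higher numbered 2 without CPB+Nitrite 1, without CPB+Nitrite 2, with DESeq2, with RLE factors and with the factors of the second deposited table, and 3 with voom and in a fit of the CPB and sham libraries alone. Gfm2, a ribosome recycling factor, was at 20.8, 23.6, 31.5 and 23.2 CPM in CPB+Nitrite, 19.8, 16.6, 15.4 and 18.4 CPM in CPB, and 35.3, 39.5, 38.4 and 39.3 CPM in sham kidneys. The libraries of both bypass groups lay below all sham libraries (CPB over sham -1.12, SE 0.15, edgeR adjusted p 0.000968). Mtrf1, a release factor (-1.49), and Cars2, the cysteinyl-tRNA synthetase (-1.23), were also lower in CPB.

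Regulators of mitochondrial biogenesis were called in 11 of 12 cases, 6 higher and 5 lower, against 21.7% of all tested genes higher and 21.5% lower. The higher count was 3 without sham 1, without CPB 3 and with library totals alone, and the lower count was 5 to 6 under every alternative run. Ppargc1a, a coactivator that drives mitochondrial gene programmes in energy-demanding tissue, was at 7.40, 14.4, 27.4 and 17.03 CPM in CPB+Nitrite, 6.91, 13.7, 11.1 and 9.24 CPM in CPB, and 19.6, 36.2, 23.4 and 40.4 CPM in sham kidneys. No CPB library reached the lowest sham library (log2 change -1.55, SE 0.37, edgeR adjusted p 0.00634). Its partners Esrra (-0.93, adjusted p 0.00107) and Ppara (-2.03, adjusted p 0.00309) and the deacetylase Sirt3 (-1.26, adjusted p 0.00164) were lower too. Pprc1, a related coactivator, was higher (2.06, SE 0.42, adjusted p 0.00322). Nrf1, Gabpa, Gabpb1, Yy1 and Sirt1 were also higher in CPB, with Nrf1 at 31.4 to 34.5 CPM in CPB and 21.6 to 24.0 CPM in sham libraries. Among 9 tested genes of mitochondrial nucleotide supply, 1 was higher and 3 lower, close to the 43.2% of all tested genes called. Without CPB+Nitrite 2 these counts were 2 and 4. The higher one was Cmpk2, a mitochondrial nucleotide kinase that interferon induces, with 55.0, 16.7, 4.65 and 42.0 CPM in CPB+Nitrite, 79.6, 245, 199 and 286 CPM in CPB, and 3.72, 5.15, 7.81 and 5.80 CPM in sham kidneys (CPB over sham 5.17, SE 0.68, edgeR adjusted p 0.000968).

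In CPB+Nitrite over CPB edgeR called 0 of the 163 listed nuclear genes and 0 of all 14664 tested genes. An unadjusted p below 0.05 was found for 30 of the 163, beside 29.4% of all tested genes. The count of 0 calls did not hold without CPB+Nitrite 1, where edgeR called 2865 of 14859 genes in all. Without that library edgeR called 3 genes of transcription and replication and 5 of RNA processing and stability lower in CPB+Nitrite, and 2 translation factors and 2 biogenesis regulators higher. It also called 1 gene higher and 1 lower in RNA decay, 1 higher and 2 lower among the synthetases, 1 higher in complex I, 1 higher in transcription and replication, 1 lower in nucleotide supply and 1 lower among the biogenesis regulators. By list, DESeq2 called at most 4, among RNA processing and stability, and voom called 0 in each. Of all genes DESeq2 called 2215 of 15604 and voom 1 of 14664. The values with the smallest p included Noa1 (-0.84, edgeR adjusted p 0.0556), Cmpk2 (-2.77, adjusted p 0.0556), Pnpt1 (-0.61, adjusted p 0.0592) and Esrra (0.53, adjusted p 0.0611). Beside 4.81% of all tested genes, 5 of the 163 listed genes were called in CPB+Nitrite over sham. Among them Ndufs1 (-0.66), Gfm2 (-0.62) and Taco1, a translational activator of Co1 (-1.06), were lower, and Cmpk2 (2.40) was higher, with edgeR adjusted p-values of 0.0391 to 0.0494. All calls of that comparison were sensitive to the libraries used, with 705 genes called in all and between 0 and 2976 when 1 library was left out.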

How the data were processed

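Total RNA was extracted with QIAzol, cleared of DNA with TURBO DNA-free and made into libraries with a strand-specific NEBNext Ultra II kit, per the labels' protocols. The submitters' processing notes list the tools with no order or options, namely Salmon 1.2.1, cutadapt 1.18, bcl2fastq 2.19 and R 3.5.1, and the build mRatBN7.2. One deposited table held estimated counts per gene as the authors made them, not normalised. Of the entries above 0, 33.1% were fractional, and 7 entries, all of Mt-co1, were rounded to 3 digits. In the other deposited table the values are a scaled signal, the counts times 1 factor per library, and it supplied names, coordinates and biotypes.

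Counts were rounded and filtered with filterByExpr (minimum count 10), which kept 14664 of 30208 genes and 99.95% of reads. All 12 libraries were fitted together with edgeR 4.0.16 in R 4.3.3 (TMM factors 0.887 to 1.11, no covariates, 9 residual degrees of freedom, biological coefficient of variation 0.317). Tests were two-sided and the fit was tested on simulated data. Standard errors came from the quasi-likelihood F statistic. Ratios were tested by exact permutation of the libraries (scipy 1.17.1), adjusted over 6 tests.

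The members and lists were chosen with earlier results of these data known. Named nuclear genes were up to 4 called members with the smallest p per list, or 2 where none was called, and Tfam, Polrmt, Tfb2m, Lrpprc, Slirp, Pnpt1, Polg and Ppargc1a. Not every gene the rule allows is reported here. Rn18s, Rn45s, LOC120093067, LOC120102105 and the tubule and endothelial markers named singly were chosen after their values were seen. So were Nrf1, Gabpa, Gabpb1, Yy1 and Sirt1. Alternatives were other scaling (RLE, library totals, factors of the second table, factors from genes not on MT), other filters, a replicate block, DESeq2 1.42.0, limma 3.58.1 voom with sample weights, the libraries of both groups only, and leaving out each library. The same settings for the list counts were chosen after seeing the data.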

Additional observations from a re-analysis of the deposited data

Results flagged for a closer look

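In groups of 4 libraries, 102 sets of mitochondrial values were examined for a library far from the other 3, by Dixon's criterion at its 95% critical value, and 7 were found. Chance gives about 1 in 20. The sets are not independent, because shares of the same mRNA reads are bound to each other. CPB+Nitrite 2 accounted for 5 of the 7. It had 138 CPM of Mt-nd4l, against 191 to 195 CPM in the other 3 CPB+Nitrite libraries. Of the mitochondrial mRNA reads it gave 17.5% to Mt-co1 (others 32.6% to 34.6%), 0.222% to Mt-atp8 (others 0.144% to 0.156%), 12.1% to Mt-atp6 (others 8.79% to 9.08%) and 18.3% to Mt-co3 (others 11.8% to 12.4%). CPB 1 accounted for the remaining 2. Its share of Mt-nd4l was 0.107% (other CPB libraries 0.120% to 0.122%), and its ratio of large to small rRNA reads was 1.96 (others 2.97 to 3.16).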

How the results depend on the processing

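Both rRNA genes were called higher in CPB than in sham under every alternative run, with a log2 change of 0.95 to 1.27 for the small rRNA (edgeR, DESeq2 or voom adjusted p 0.000164 to 0.0238) and 1.66 to 2.08 for the large rRNA (adjusted p 0.00011 to 0.0231). The count of called genes was 2 to 3 in CPB over sham and 0 in CPB+Nitrite over CPB. In CPB+Nitrite over sham it was 1 with DESeq2 and 1 with voom weights, and 0 to 1 with 1 library left out. Of 450 other settings of single genes 25 changed sign, and of 540 with 1 library left out 29 did, all for mRNAs that were not called. Library totals alone, which move the median of all genes, gave in CPB over sham -0.15 for Mt-nd4, -0.024 for Mt-co1, -0.14 for Mt-nd1, -0.18 for Mt-co2, -0.032 for Mt-atp8, -0.16 for Mt-cyb, -0.029 for Mt-nd2 and -0.045 for Mt-co3. The same scaling took the calls of all genes that were higher to 34.8%, against 50.3%. In CPB+Nitrite over CPB it gave 0.060 for Mt-nd5, 0.080 for Mt-atp8 and 0.087 for Mt-nd2, and in CPB+Nitrite over sham -0.017 for Mt-nd4, -0.0054 for Mt-nd1 and -0.078 for Mt-nd4l. A filter at a mean of 2 CPM gave -0.028 for Mt-co2 and -0.0049 for Mt-cyb in CPB over sham, and 0.0017 for Mt-nd5 and 0.011 for Mt-nd2 in CPB+Nitrite over CPB. Voom gave 0.026 for Mt-nd5 and 0.034 for Mt-nd2 in CPB+Nitrite over CPB, and 0.11 for Mt-co1 in CPB+Nitrite over sham. Factors from genes not on MT gave -0.0034 for Mt-nd1 in CPB+Nitrite over CPB. In CPB+Nitrite over sham the factors of the second table gave 0.017 for Mt-co1, no filter gave -0.011 for Mt-nd4l, and the libraries of both groups only gave -0.0029 for Mt-nd4l. The cause of the other sign changes was not tested.

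With 1 library left out, CPB over sham ran from -0.031 to 0.054 for Mt-co2 and from -0.18 to 0.067 for Mt-nd4l. CPB+Nitrite over CPB ran from -0.059 to 0.48 for Mt-nd6, -0.24 to 0.31 for Mt-nd5, -0.10 to 0.11 for Mt-nd4, -0.044 to 0.11 for Mt-atp6, -0.41 to 0.044 for Mt-co1, -0.12 to 0.14 for Mt-nd1, -0.10 to 0.0011 for Mt-atp8 and -0.13 to 0.066 for Mt-nd2. CPB+Nitrite over sham ran from -0.041 to 0.15 for Mt-nd4, -0.22 to 0.21 for Mt-co1, -0.041 to 0.20 for Mt-nd1 and -0.076 to 0.17 for Mt-nd4l. The log2 ratio of large to small rRNA ran from -0.22 to 0.15 in CPB+Nitrite over CPB and the log2 ratio of Mt-nd6 to the other mRNAs from -0.080 to 0.40. With 3 against 4 libraries, or 4 pairs, the exact tests of the ratios cannot pass after adjustment, so they say nothing of stability.

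Deviations of libraries with the same replicate number correlated at -0.107 to 0.381, and the numbers were not used as pairs. The sham library of the same number was the closest match for CPB 1 (0.223), CPB 3 (0.139) and CPB 4 (0.067). It was also the closest for CPB+Nitrite 2 (0.381). In all other cases a library of another number was closest. With the replicate number as a block 2 mitochondrial genes were called in CPB over sham and 0 in both other comparisons, and calls among all genes in CPB+Nitrite over sham fell to 28. Polrmt was not called with the block in CPB over sham. Depth limits Mt-nd6 most, with 373 to 1989 reads per library.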
